A study of Homo sapiens with 2 samples.

Results

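This account covers 159 microRNA genes in UACC62 cells, an established human melanoma line, out of 14884 genes that could be named on the array. The members are genes whose symbol begins with MIR or MIRLET and a digit, host transcripts left out, and whose brightest probe set had a mean log2 value over both arrays of at least 8.021, the median of all named genes. The members were thus chosen by their brightness, that is by the mean of the values compared here and not by their difference, and brightness is given as a description. Of 1072 microRNA genes with a named probe set, the other 913 were dimmer. RNA came from 1 culture that had received a non-targeting siRNA (control siRNA) and 1 that had received an siRNA specific for FOSL1 (FOSL1 siRNA), both harvested on day 3. The labels name no other genetic change or agent in either culture. FOSL1, also called FRA1, is a subunit of the transcription factor AP-1. With 1 array per condition there is no replicate error, no test was possible and no p-value is given, so each difference describes these 2 arrays. Whether 1 siRNA sequence or a pool was used is not given in the sources used here.

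MicroRNA genes are transcribed as long primary transcripts, or lie within introns of other genes. The nuclear enzyme Drosha with its partner DGCR8 cuts out a hairpin, exportin 5 carries it to the cytoplasm, and Dicer trims it to a short duplex. One strand of the duplex enters an Argonaute protein and pairs with messenger RNAs mainly through its seed, the bases from position 2 to 8 counted from the 5′ end. In melanoma, microRNAs such as miR-211 and miR-204 belong to the pigment cell programme, and miR-21 and the pair miR-221 and miR-222 are known as growth-promoting. The labels' protocols describe a spin column that as a rule retains little RNA of mature microRNA length, followed by whole-transcript amplification. The probe sets are therefore read here as signal at the microRNA locus, which can come from primary, hairpin or overlapping transcripts, and not as mature microRNA.

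RefSeq hairpins were found for 137 of the 159 genes and mature sequences for 142. The hairpins shown first belong to the genes with the lowest and next lowest difference, and to the most AT-rich gene, among those at least 1.5-fold apart. Each is given from its 5′ end, with the annotated mature arms in capitals. MIR4519 is on the minus strand at chr16:30875266-30875323, MIR92B on the plus strand at chr1:155195177-155195272 and MIR590 on the plus strand at chr7:74191198-74191294, all in GRCh38.p14.
MIR4519: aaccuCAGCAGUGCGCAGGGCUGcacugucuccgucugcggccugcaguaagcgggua
MIR92B: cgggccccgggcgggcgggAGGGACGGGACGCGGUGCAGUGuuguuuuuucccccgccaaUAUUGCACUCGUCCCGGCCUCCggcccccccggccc
MIR590: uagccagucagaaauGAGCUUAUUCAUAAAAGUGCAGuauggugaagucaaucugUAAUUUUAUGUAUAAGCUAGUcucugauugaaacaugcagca
Bases G and C made up 63.8% of the MIR4519 hairpin, 75% of that of MIR92B and 35.1% of that of MIR590.

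The 198 mature sequences held 186 distinct seeds, and 10 seeds occurred in more than 1 member. The sequences below, with the seed in capitals, were chosen because they set members with a shared seed beside each other.
MIR21 (hsa-miR-21-5p): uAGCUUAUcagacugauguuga
MIR590 (hsa-miR-590-5p): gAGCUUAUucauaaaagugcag
MIR25 (hsa-miR-25-3p): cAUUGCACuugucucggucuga
MIR92B (hsa-miR-92b-3p): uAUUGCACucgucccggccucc
MIR181C (hsa-miR-181c-5p): aACAUUCAaccugucggugagu
MIR181D (hsa-miR-181d-5p): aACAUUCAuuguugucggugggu
MIR3689D1 and MIR3689D2 (hsa-miR-3689d): gGGAGGUGugaucucacacucg
MIR3689A and MIR3689B (5p arms): uGUGAUAUcaugguuccuggga
MIR3689F (hsa-miR-3689f): uGUGAUAUcgugcuuccuggga
These groups come back with their values further on.

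Both arrays had almost the same distribution of values, with medians of 6.885 over 53427 probe sets, and values at equal rank differed by at most 0.0301. FOSL1 itself was 2.88-fold lower with its siRNA (log2 values of 11.90 and 10.38, control first), in the direction the labels give. Of 6 melanocyte markers with a named probe set, SOX10, TYR, MLANA and MITF were past the brightness threshold, whereas PMEL (6.76) and TYRP1 (6.48) were not. The 7 named markers of epithelium, fibroblasts, endothelium and leukocytes had mean log2 values between 4.06 and 7.27, and the other markers listed for these cells were not analysed here.

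Most of the bright microRNA genes were lower with FOSL1 siRNA. Of the 159, 128 lay below 0 in the log2 difference (FOSL1 siRNA minus control siRNA), 30 above and 1 at 0, whereas 50.1% of all 7440 named genes past the threshold were below 0. The median difference was -0.27, against -0.00 over all those named genes and 0.00 over the 7281 that are not microRNA genes. At least 1.5-fold lower were 20 members, or 12.6%, beside a background of 0.766% of all named genes past the threshold. At least 1.5-fold higher were 4, or 2.52%, beside 1.13%. With a trend on gene span removed over all named genes, the median was -0.14 and 8 members were at least 1.5-fold lower, as given with the spans further on. No member reached 2-fold in the deposited values, where the background was 0.0403% lower and 0.0806% higher. Microarray probe sets differ in how strongly they bind, so brightness orders probe sets and not the amounts of different RNAs. In RNA from a whole culture, a lower level in each cell and fewer cells with the transcript cannot be told apart.

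**Figure D1:**
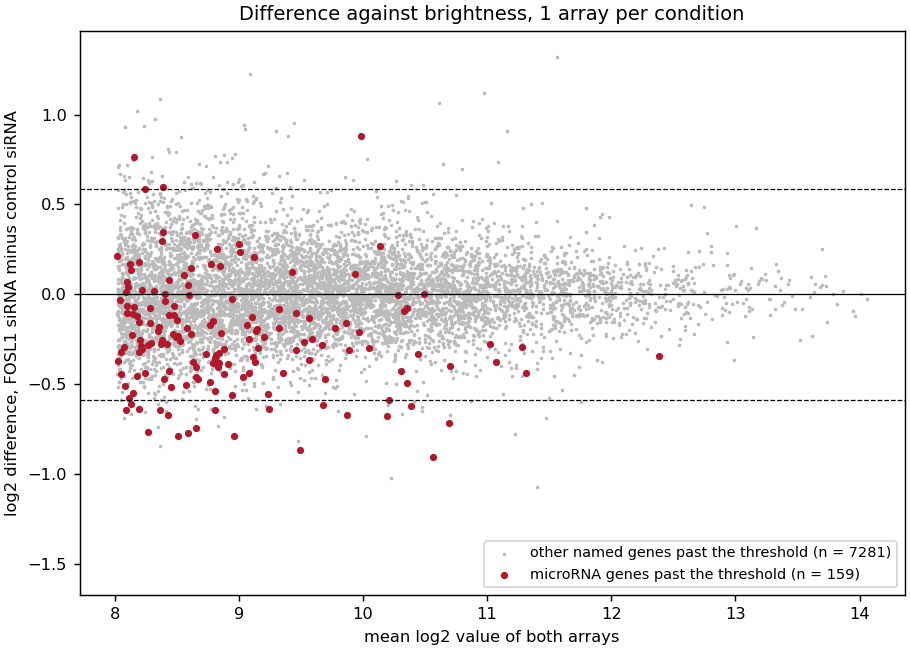
Log2 difference (FOSL1 siRNA minus control siRNA) against the mean log2 value of both arrays for the 159 microRNA genes (red) and the 7281 other named genes past the threshold (grey); the dashed lines mark 1.5-fold and each point is 1 gene on 1 array per condition. The red points lie mostly below 0 over the whole range of brightness, with 20 below the lower line and 4 above the upper one.

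MIR4519, which lies within the span of BCL7C, had log2 values of 11.01 on the control array and 10.11 on the FOSL1 siRNA array, and in what follows the control value always comes first. It was 1.87-fold lower, the lowest difference among the 159 (-0.91). MIR92B, of the miR-25 and miR-92 family, had values of 9.93 and 9.06, which is 1.82-fold lower. MIR4692 was at 8.90 and 8.12, or 1.73-fold lower, but its dimmer probe set differed by -0.05 and the mean of both by -0.42. MIR3621 was at 9.36 and 8.57, and MIR1976, within RPS6KA1, at 8.98 and 8.21, which is 1.73-fold and 1.71-fold lower. Both arrays of these 5 genes were above the brightness threshold, so none of them was called through a dim array.

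Among the other 15 genes at least 1.5-fold lower, log2 differences lay between -0.77 and -0.59. MIR339, an older and conserved microRNA gene within CHLSN, had values of 10.21 and 9.54, while CHLSN itself, with a mean of 7.85 under the threshold, had a difference of 0.06. MIR346 was at 9.56 and 8.93. MIR486-1, known for its abundance in red cell precursors and muscle, was at 9.98 and 9.37 and its further probe sets gave -0.39. It has a near-identical partner gene, so the origin of its signal is uncertain. MIR3143, MIR661, MIR1238 and MIR4754 were among the brighter of these genes, with control values of 11.05, 10.53, 10.70 and 10.51 and differences of -0.72, -0.68, -0.62 and -0.59. MIR4489, MIR3182, MIR596 and MIR4635 had differences of -0.74, -0.67, -0.65 and -0.64. The remaining 4, MIR3194, MIR4294, MIR4518 and MIR4515, were under the threshold with FOSL1 siRNA, at 7.88, 7.77, 7.88 and 7.82. The dimmer probe set of MIR4518 differed by -0.19 and the mean of both by -0.41, and as a mean of probe sets MIR486-1 was at -0.46, all under 1.5-fold.

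The 4 genes at least 1.5-fold higher were MIR1299, MIR3198-1, MIR590 and MIR4292. MIR1299 was at 9.55 and 10.43, 1.84-fold higher, and was bright on both arrays. MIR3198-1, within the span of the apoptosis gene BID, was at 7.78 and 8.54, 1.7-fold higher, while BID differed by -0.01. MIR590, within the translation factor gene EIF4H, was at 8.09 and 8.69, and MIR4292, within RABL6, at 7.95 and 8.53. MIR4292 stood at 1.5-fold by a narrow margin (0.585 in log2) and was under it when each array was centred on its median, when named genes were quantile normalized (0.582) and as a mean of its probe sets (0.47), each of which left 3 genes at least 1.5-fold higher. Its dimmer probe set gave a difference of 0.36. With control siRNA, MIR3198-1 and MIR4292 were below the threshold, so they became members through the array in which they were high.

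**Figure D2:**
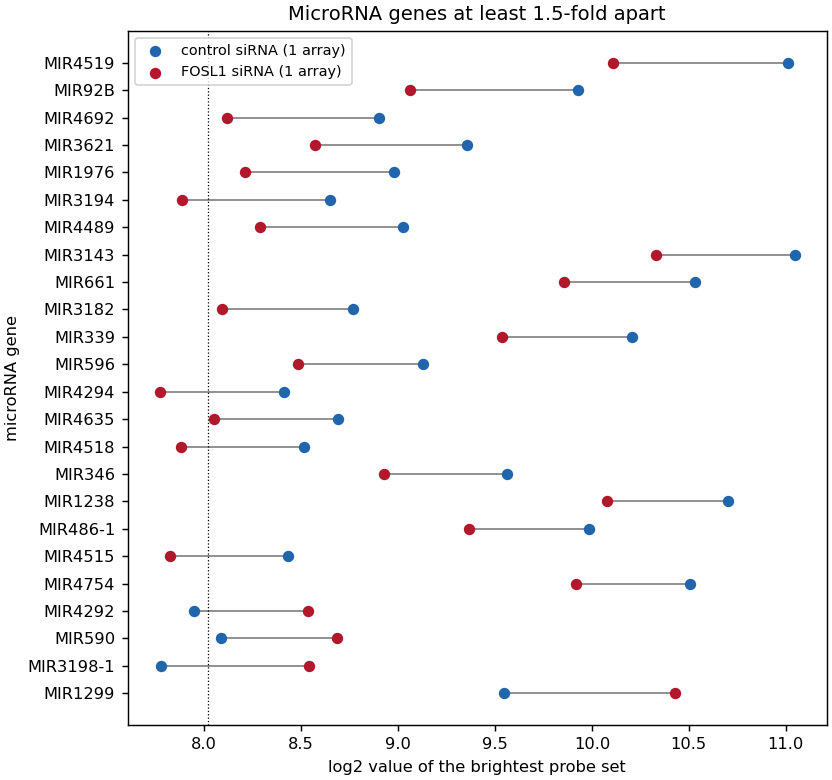
Log2 value of the brightest probe set on the control siRNA array (blue) and the FOSL1 siRNA array (red) for the 24 microRNA genes at least 1.5-fold apart, ordered by difference; the dotted line is the threshold of 8.021 on the mean. In 20 genes the blue point is to the right, from MIR4519 to MIR4754, and in the 4 at the bottom the red point is.

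Membership by the mean can hold a gene through 1 array. On both arrays 144 members were at or above 8.021, 12 were so with control siRNA only and 3 with FOSL1 siRNA only. Among the 144, the median was -0.25, 116 lay below 0, and 16 (11.1%) were at least 1.5-fold lower and 2 (1.39%) at least 1.5-fold higher. Of all named genes past the threshold on the mean, 0.766% were lower and 1.13% higher. The share for named genes bright on both arrays is not given here. The members just inside the threshold were MIR423, MIR4268 and MIR151B, with mean log2 values of 8.02, 8.03 and 8.05 and differences of 0.22, -0.37 and -0.03. Just outside it were MIR134, MIR1539 and MIR99B, at 8.009, 8.003 and 7.991, with differences of -0.29, -0.12 and -0.69. The 913 dimmer microRNA genes had a median difference of -0.09, nearer 0 than the bright ones, and 60.5% of them were below 0. Other named genes below the threshold were close to this, with a median of -0.05 and 58.7% below 0. Of the 913, 74 (8.11%) were at least 1.5-fold lower and 42 (4.60%) at least 1.5-fold higher. Other named genes below the threshold had 1.26% and 2.42%. Over all 1072 microRNA genes the counts were 94 and 46, beside 1.43% and 1.91% of all 14884 named genes.

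**Figure D3:**
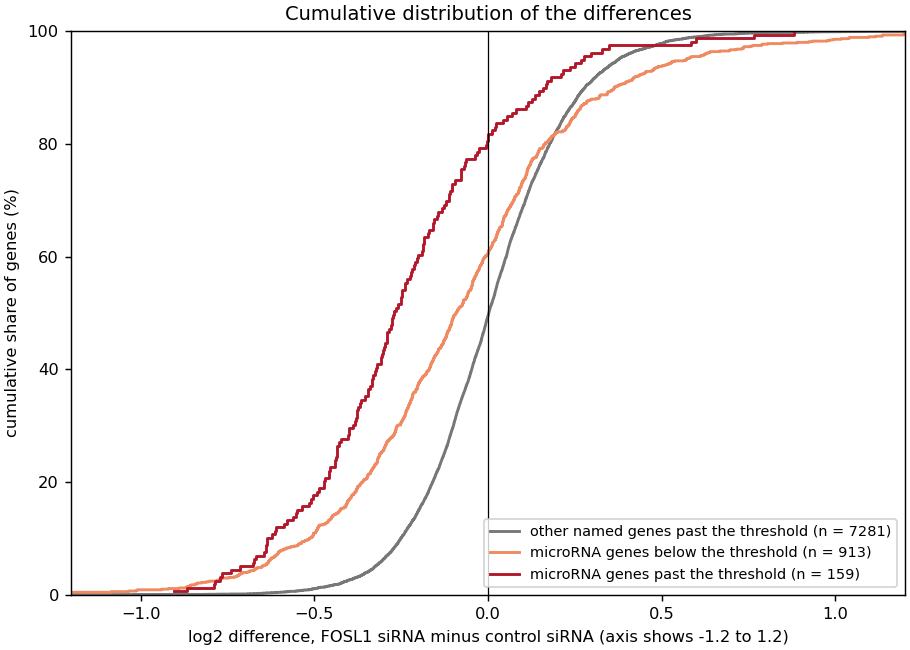
Cumulative share of genes (%) against the log2 difference for the microRNA genes past the threshold (dark red, 159), the dimmer ones (orange, 913) and the other named genes past the threshold (grey, 7281). Just below 0 the dark red curve has passed 80.5% of its genes, the orange curve 60.5% and the grey curve 49.4%. For other named genes below the threshold, which are not drawn, the share below 0 was 58.7%.

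The shift held over the range of brightness. The 102 members with a mean between 8.021 and 9 had a median difference of -0.25, the 37 between 9 and 10 had -0.25, and the 20 above 10 had -0.36. Other named genes in the same bands had medians of -0.01, 0.00 and 0.01. The 5 brightest members were MIR4737, MIR1910, MIR663B, MIR3907 and MIR2909. MIR4737 had values of 12.56 and 12.21, MIR1910 of 11.53 and 11.09, and MIR663B of 11.42 and 11.13. MIR3907 differed by -0.38 and MIR2909 by -0.28, so all 5 were below 0. The second probe set of MIR2909, much dimmer at 6.91 and 7.31, differed by 0.40 in the opposite direction.

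Gene span moved with the differences over the whole array. Other named genes past the threshold with a span of over 100000 bases had a median difference of 0.09, those of 10000 to 100000 bases 0.02 and those of 1000 to 10000 bases -0.10. The 51 with a span of 150 to 1000 bases had -0.07, so the order was not stepwise, and of these 0 were at least 1.5-fold lower and 4 at least 1.5-fold higher. The 10 with a span of at most 150 bases had -0.29, all 10 below 0. Those 10 were the vault RNA gene VTRNA1-3 (-0.56), the small Cajal body RNA gene SCARNA22 (-0.33) and 8 genes of the SNAR family, small cytoplasmic RNAs with near-identical copies, between -0.37 and -0.01. Lower values were thus found in other very short RNA genes too. The 9 small Cajal body RNA genes past the threshold, all but SCARNA22 with a longer span, had a median of 0.02, with SCARNA9L at 0.95 and SCARNA17 at -0.36. With a trend on gene span removed, the median of the microRNA genes was -0.14 and 8 of them, from MIR4519 (-0.78) to MIR3143 (-0.59), were at least 1.5-fold lower, where 35 of all 7440 named genes were. The other 12 of the 20 lay between -0.55 and -0.46, and the 4 higher genes between 0.71 and 1.01, which put MIR1299 past 2-fold. Of the 1094 named genes with a span of at most 150 bases, 1070 were microRNA genes, and these took part in fitting the trend.

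Bright microRNA loci were rich in G and C. The hairpins of members had a median GC content of 62.6%, with an interquartile range of 55% to 66.7%, and those of dimmer microRNA genes had 46.0%. Below 50% GC, 3.12% of the 481 hairpins belonged to members. That share was 16.5% from 50% to 60%, 48.8% from 60% to 70% and 66.7% of the 33 hairpins at 70% or more. Over the 884 microRNA genes with a hairpin sequence, GC content and mean log2 value had a Pearson correlation of 0.73. These points share both arrays and are not independent replicates, and probes of these loci have the base composition of the locus.

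GC content also moved with the difference, more loosely. Members with a hairpin under 50% GC had a median difference of -0.17 (15 genes) and those from 50% to 60% -0.18 (41). Those from 60% to 70% had -0.28 (59) and those at 70% or more -0.35 (22). In the same order, 80%, 61.0%, 84.7% and 90.9% were below 0, so the sign shares were not stepwise. Over the 137 members with a hairpin the Pearson correlation was -0.26, while hairpin length had 0.05. Among the higher genes, MIR590 had the lowest GC content of the 137 (35.1%), whereas MIR4292 was at 70.1%. MIR3143 was at 41.3% and yet 1.64-fold lower. The part of base composition in the lower values was not tested.

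**Figure D4:**
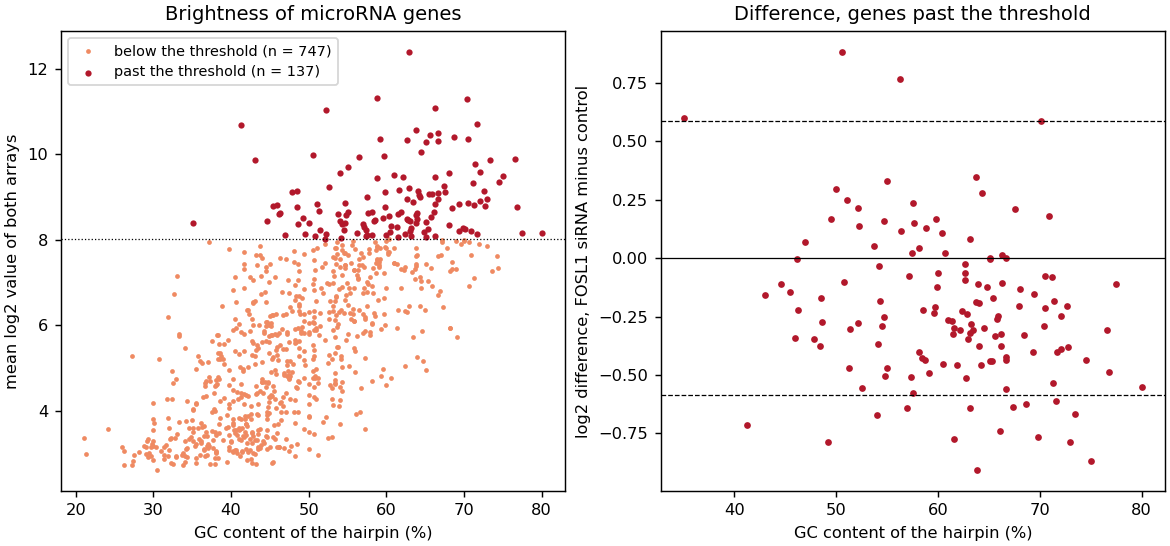
Left, mean log2 value of both arrays against the GC content (%) of the RefSeq hairpin for 747 dimmer (orange) and 137 bright (red) microRNA genes, with the threshold dotted; right, log2 difference against GC content for the 137, with dashed lines at 1.5-fold. Brightness climbs with GC content on the left (Pearson correlation 0.73), and on the right the points spread widely around a weak downward slope (-0.26).

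Members with several probe sets have further readings of the same short locus within the same arrays, which need not be independent. There were 36, and in 32 of them at least 2 probe sets carried different values. In 19 of these the next brightest distinct probe set was also past the threshold, and in 18 of the 19 its difference had the same sign, with a median of -0.24 against -0.28 for the brightest. Within a gene, the SD over its probe sets came to 0.142 in these 19 and 0.180 in 176 other genes. Where the next probe set was dimmer than the threshold, 8 of 13 signs were the same. MIR877 gave -0.51 and -0.50 and MIR4533 -0.49 and -0.43, whereas MIR4730 gave -0.26 and 0.28. This spread is within 1 pair of arrays and leaves out variation between cultures. In 4 of the 36 members all probe sets had identical values, and the 7 of MIR877 held 2 distinct readings. Probe sets of so short a locus may share probes, so no conclusion is drawn from their like signs.

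Many members lie inside another gene. With the strand known for 148 members, 86 (58.1%) were found wholly within a gene on the same strand. Of these, 73 were in a protein-coding gene and 13 in a long non-coding RNA gene. A surrounding gene was found only where its own strand was known, so 86 may be too few. Exon and intron borders were not used here. These 86 had a median difference of -0.27 and the 62 for which no such gene was found -0.25. The 62 can thus include genes that lie inside another gene. For 35 members in 33 genes the surrounding gene was itself past the brightness threshold. There the microRNA genes had a median of -0.27, with 25 below 0, and the surrounding genes -0.02, with 20 of 35 readings below 0.

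The microRNA gene was lower than the gene around it in 26 of the 35 pairs, by a median of 0.13 log2 units over all pairs. None of the surrounding genes reached 1.5-fold, and across pairs the differences had a Pearson correlation of 0.26. BCL7C, around MIR4519, had values of 9.56 and 9.29. MCM7, the replicative helicase gene around MIR25, was at 11.68 and 11.62, a difference of -0.05, while MIR25 differed by -0.32. VMP1, around MIR21, was at 13.15 and 13.08. MIR191, in DALRD3, went the other way: it was at 8.69 and 8.86, and DALRD3 at 9.44 and 9.13. MIR3175 differed by -0.18 while CHD2, the chromatin remodeler around it, had 0.48. AATK holds both MIR338 and MIR1250, which differed by -0.22 and -0.58, with AATK itself at -0.22.

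**Figure D5:**
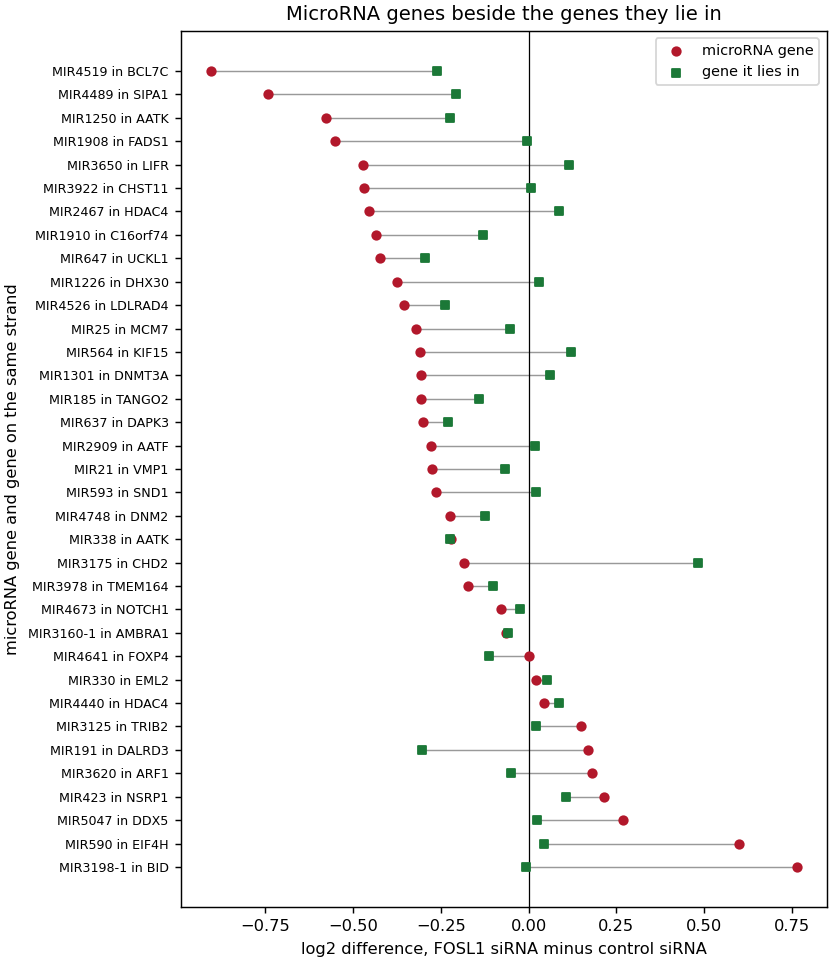
Log2 difference (FOSL1 siRNA minus control siRNA) of 35 microRNA genes (red circles) and of the gene on the same strand that contains each (green squares, all past the threshold), ordered by the microRNA gene. The green squares lie between -0.30 and 0.48 around a median of -0.02, and the red circles run from -0.91 to 0.77.

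Members with a shared seed or a shared cluster did not all differ alike. MIR21 had log2 values of 8.51 and 8.24, a difference of -0.27, while MIR590, with the same seed, was 1.51-fold higher. MIR25 and MIR92B, on different chromosomes, were both lower, by -0.32 and -0.87. MIR181C and MIR181D, 66 bases apart on chromosome 19, differed by -0.29 and -0.13, and MIR4262, which has their seed, by 0.02. The seed shared by MIR1301 and MIR5047 came with -0.31 and 0.27. In the MIR3689 cluster on chromosome 9, MIR3689D1 was at 8.86 and 8.45 and MIR3689D2, with the same mature sequence, at 8.89 and 9.12. MIR3689A and MIR3689B had 0.12 and 0.13 and MIR3689F had -0.19. These 5 loci resemble each other closely, and probes may not separate them.

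The lists of known microRNAs held few bright members. Of 4 genes described as induced by AP-1, MIR21 was a member, at -0.27. The others were dimmer and below 0, as were 60.5% of all 913 dimmer microRNA genes. MIR221 had values of 7.31 and 6.82, MIR222 of 6.74 and 6.37, and MIR155 of 6.32 and 6.29. None of the 8 named genes described as targeting FOSL1 was bright, and 6 of them were below 0, with MIR34A at 0.24 and MIR497 at -0.63. Of 24 named melanocyte and melanoma genes, MIR21 alone was a member, and 12 of the other 23 were below 0. The pigment cell gene MIR211 was at 7.51 and 7.29, below the threshold, and its relative MIR204 at 5.52 and 5.63.

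Among the let-7 genes, a family that restrains growth genes, MIRLET7A3 was the bright one, with values of 8.98 and 8.64. Of the 10 dimmer let-7 genes 3 were below 0, and their median was 0.19. MIR25 was the bright one of 9 named genes of the clusters related to miR-17-92. Genes of the miR-17-92 cluster itself were not analysed here. MIR24-2 was at 8.83 and 8.33, the sole bright gene of the miR-23, miR-24 and miR-27 clusters. MIR30E, of the miR-30 family, was on the other side at 8.70 and 8.95. MIR210, the classic hypoxia microRNA, had -0.38 and MIR146A, a brake on NF-kB signalling, -0.15. Of the genes induced by p53, MIR194-2 had -0.22 and MIR107 0.07. No member of the epithelial miR-200 family (6 named genes) or of the miR-15 and miR-16 clusters (6) was bright. Of these, 5 and 4 were below 0, beside 60.5% of all 913 dimmer microRNA genes.

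Some further groups were picked after their values were seen. MIR877, MIR1226, MIR1227, MIR1237 and MIR1238 have been described as mirtrons, short introns that fold into a hairpin after splicing without Drosha, and had differences of -0.51, -0.37, -0.40, -0.11 and -0.62. MIR127, MIR770, MIR412 and MIR2392 lie in the imprinted microRNA region of chromosome 14 and had -0.55, -0.44, -0.07 and 0.08. Beside the 80.5% of all members below 0, all 13 members on chromosome 16, all 10 on chromosome 11, all 9 on chromosome 8, all 6 on chromosome 20, all 5 on chromosome 5 and all 3 on chromosome 15 were below 0. On chromosome 9 it was 7 of 12 and on chromosome 14 it was 4 of 7. The 54 members with a symbol number under 1000, which were in general found earlier and include most conserved microRNAs, had a median of -0.29. The 105 with a number of 1000 or more had -0.25.

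Most of the listed microRNA pathway genes with a named probe set were slightly higher. Of the listed genes 14 had a named probe set and 13 were past the threshold. Of the 13, 3 were below 0 and 10 above, with a median of 0.09, and none was 1.5-fold apart. Of all 7440 named genes past the threshold, 3706 were above 0, 0.766% at least 1.5-fold lower and 1.13% higher. Other named genes spanning over 100000 bases also had a median of 0.09. Those of 10000 to 100000 bases had 0.02 and those of 1000 to 10000 bases -0.10. Spans of the listed genes are not given here, and the part of gene span was not tested. DGCR8, the Drosha partner, had values of 8.72 and 8.87, and the exporter XPO5 of 11.28 and 11.32. LIN28B, which blocks let-7 processing, had the largest positive difference at 0.39 (8.35 and 8.74). TNRC6A, TNRC6B and TNRC6C, the GW182 proteins that carry out silencing with Argonaute, had 0.09, 0.22 and 0.26. TARBP2, a Dicer partner, was at 9.70 and 9.38, a difference of -0.32, and GEMIN4 and the helicase DDX17 had -0.24 and -0.10. DROSHA, DICER1 and the Argonaute genes were not analysed here.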

How the data were processed

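The deposited file holds a value for each of 53427 probe sets on each array, read as log2 intensities from the range of 2.226 to 14.81. Per the labels' protocols, whole-transcript amplification started from 100 ng of RNA per array, and the DNA carried a biotin label. Log base, background correction, normalization and array build are not given in the sources used here. The name table gave 16098 probe sets 1 symbol and 37329 none. The brightest probe set stood for a gene. All 14884 genes matched the RefSeq table (GRCh38.p14) by Entrez ID. Sequences are from RefSeq. The members, lists and naming rule (genes at least 1.5-fold apart, the 5 brightest, those at the threshold, list members) were chosen with earlier results of these data known. Trends were removed by lowess (fraction 0.3, statsmodels 0.14.6, pandas 2.3.3, Python 3.11.15). The counting functions were tested on simulated data. The number of arrays limits the precision, and whole-cell changes in RNA amount cannot be seen on this scale.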

Additional observations from a re-analysis of the deposited data

How the results depend on the processing

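The alternative that keeps members bright on both arrays was added after seeing the data. The median difference stayed below 0 under every alternative run, between -0.31 (filter at the 75th percentile) and -0.12 (no filter on dim genes). The 20 lower and 4 higher genes became 8 lower with the trend on gene span removed. With no filter they became 94 and 46 (1072 genes), and above the 75th percentile of named genes 8 and 1 (35 genes). Without genes found inside another gene on the same strand or of unknown strand they became 8 and 1 (62 genes). At 2-fold they were 0 and 0, and at 0.32 log2 units 64 lower and 6 higher. Shares of all named genes are not given for the 75th percentile, the 62 genes or 0.32 log2 units. Counts under these settings thus stand without a background. Centring, quantile normalization and the mean of probe sets each gave 3 higher, beside 83, 82 and 78 of 7440 named genes. As a mean of probe sets, 18 of 154 genes were at least 1.5-fold lower, and 17 of the 20 stayed so. Among 7440 named genes, 51 were lower under that setting. Of genes bright on both arrays, 2 were higher. Fewer or more genes entered by construction under the filters. Centring, quantile normalization and removal of the trend on brightness each kept the same 20 lower genes, beside 57, 58 and 54 of 7440 named genes. For the 24 genes 1.5-fold apart, 98 values under alternatives stayed within 0.180, the SD over probe sets of a gene, and 2 did not, both as a mean of probe sets. The arrays were already alike in distribution, which leaves scaling little to move, and none of this shows that the differences would repeat. No paired analysis was possible because each condition had 1 array.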

Other observations

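Among listed microRNA genes below the brightness threshold, MIRLET7A2 had log2 values of 6.15 and 7.51 (control first) and MIR146B of 6.26 and 5.22. MIRLET7D was at 5.55 and 6.29, and MIR96, of the miR-183 cluster, at 5.27 and 4.40. These genes were picked after their values were seen.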
